A study of Mus musculus with 4 samples.

Results

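Potassium channel genes other than those of the BK channel were followed in the brain cortex of BK knockout mice and wildtype littermates. A row was counted when it was protein-coding, carried a symbol beginning with Kcn, was neither Kcnma1 nor a Kcnmb gene, and averaged 50 or more normalised counts across all 4 libraries. Of 90 rows with such a symbol 64 passed, among 13550 genes of any kind that reached the same mean out of 39179 listed. The 64 rows carry 63 symbols, because Kcnb2 is listed under 2 identifiers at the same position. The libraries were BK knockout after sleep deprivation (KO SD), BK knockout at baseline (KO BL), wildtype after sleep deprivation (WT SD) and wildtype at baseline (WT BL), each made from RNA pooled over 4 animals. All animals came from a first-generation cross of C57Bl6/J and Sv129, sleep deprivation was 4 h of gentle handling from light onset, controls stayed undisturbed, and all tissue was taken at ZT4, that is 4 h after light onset. Neither the age of the mice nor the part of Kcnma1 that was deleted is given in the sources used here. With 1 library a group no difference has a replicate check, and the intervals given are exact binomial 95% counting intervals that hold no difference between animals.

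Potassium channels let potassium leave the cell and so end spikes, set the resting potential and limit repetitive firing. Voltage-gated members (Kcna to Kcnd, Kcnh and Kcnq) open on depolarisation, Kcnn and Kcnt members sense calcium or sodium inside the cell, inward rectifiers (Kcnj) and leak channels (Kcnk) act around rest, and accessory subunits tune the pores. In mice, loss of Kcna2 is known to shorten sleep, and Kcnn2 shapes the sleep oscillations of the thalamus.

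Library totals were 36.9 M normalised counts for KO SD, 34.7 M in KO BL, 38.7 M in WT SD and 34.5 M in WT BL. They correspond to an estimated 42.0 M reads in KO SD, 27.7 M in KO BL, 34.9 M in WT SD and 30.1 M in WT BL. Across genes WT SD stood apart, with correlations of log2 values of 0.877 to 0.911 to the other libraries, and every result on WT SD rests on that 1 library. Of the comparisons below, KO SD over KO BL and KO BL over WT BL do not use it. Both use the KO BL library, on opposite sides, so that they are not independent of each other. Kcnma1 (mm10 chromosome 14, 23289431 to 23803304) was at 491 normalised counts in KO SD, 447 in KO BL, 177 in WT SD and 614 in WT BL, so that its level did not separate the genotypes and they are named as labelled. Cortical neuron markers were present in each library, led by Slc17a7, the vesicular glutamate transporter, at 24900 to 52110 normalised counts, while the liver gene Alb stayed at 10.5 to 84.1. Because trends with GC content and transcript length differed between the libraries, a second set of values was made from which both trends were removed, called corrected here. A member was counted as higher or lower from 1.5-fold, or 0.585 on the log2 scale. Signed values from here on are differences of log2(value + 1). The intervals beside them are for the log2 ratio without the added 1, which matters most for members of few counts. In bulk tissue fewer cells of a type cannot be told apart from less RNA per cell.

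Compared per kb of transcript, accessory subunits headed the list. Kcnab2, a cytosolic beta subunit of Kcna channels, was highest, at 10710 normalised counts per kb in KO SD, 15150 in KO BL, 10870 in WT SD and 9640 in WT BL. Kcnip2, a calcium-binding partner of Kcnd channels, followed at 4822 per kb in KO SD, 5154 in KO BL, 4352 in WT SD and 5310 in WT BL. Kcnab3, a further beta subunit, averaged 2303 per kb and stood highest in WT SD, at 3043 per kb. Kcnj10, the main inward rectifier of astrocytes, averaged 1716 per kb and the leak channel Kcnk1 1704. Over the 64 members the mean level per kb ran from 18.1 (Kcnb2, identifier ENSMUSG00000090498) to 11590. Just above the threshold on the mean lay Kcne4 at 57.1 normalised counts, and just below it the leak channels Kcnk12 at 48.0 and Kcnk10 at 45.7. Among the 26 rows below it, Kcnk9 was listed at 0 in WT SD and at 29.8 in KO SD, 70.1 in KO BL and 55.1 in WT BL.

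**Figure D1:**
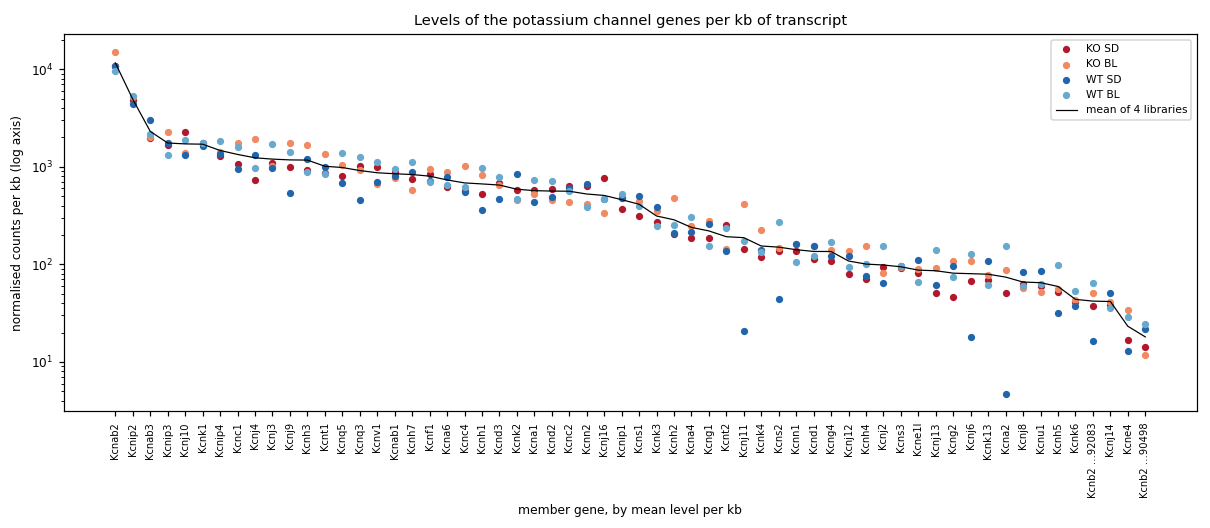
Level of 60 of the 64 members in normalised counts per kb of transcript (log axis), with 1 point per library and a line at the mean of 4, ordered by that mean. Levels ran from 11590 per kb for Kcnab2 to 18.1 for 1 of the 2 Kcnb2 identifiers (labelled by the end of the identifier), and the WT SD points of Kcna2, Kcnj11, Kcnj6 and Kcns2 lay far under the other 3.

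The first question was which channels differ in level after sleep deprivation. At deposited values, 4 members were higher and 19 lower in KO SD over KO BL (6.25% and 29.7% of members), against 16.2% and 16.4% of all 13550 genes. In WT SD over WT BL, 7 members were higher and 21 lower (10.9% and 32.8%), beside 24.5% of all genes for higher and 24.1% for lower. The median log2 difference of the members was -0.31 in the knockout pair and -0.26 in the wildtype pair, beside -0.04 over all genes in each. At corrected values 3 were higher and 11 lower in the knockout pair (7.79% and 5.34% of all genes), and 10 higher and 20 lower in the wildtype pair (18.5% and 18.2% of all genes). The corrected medians of the members were -0.07 in both pairs, beside 0.00 over all genes in the knockout pair and 0.01 in the wildtype pair. The share of lower members was thus above the share of lower genes in both pairs on both scales, while their corrected medians lay within 0.1 of all genes.

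**Figure D2:**
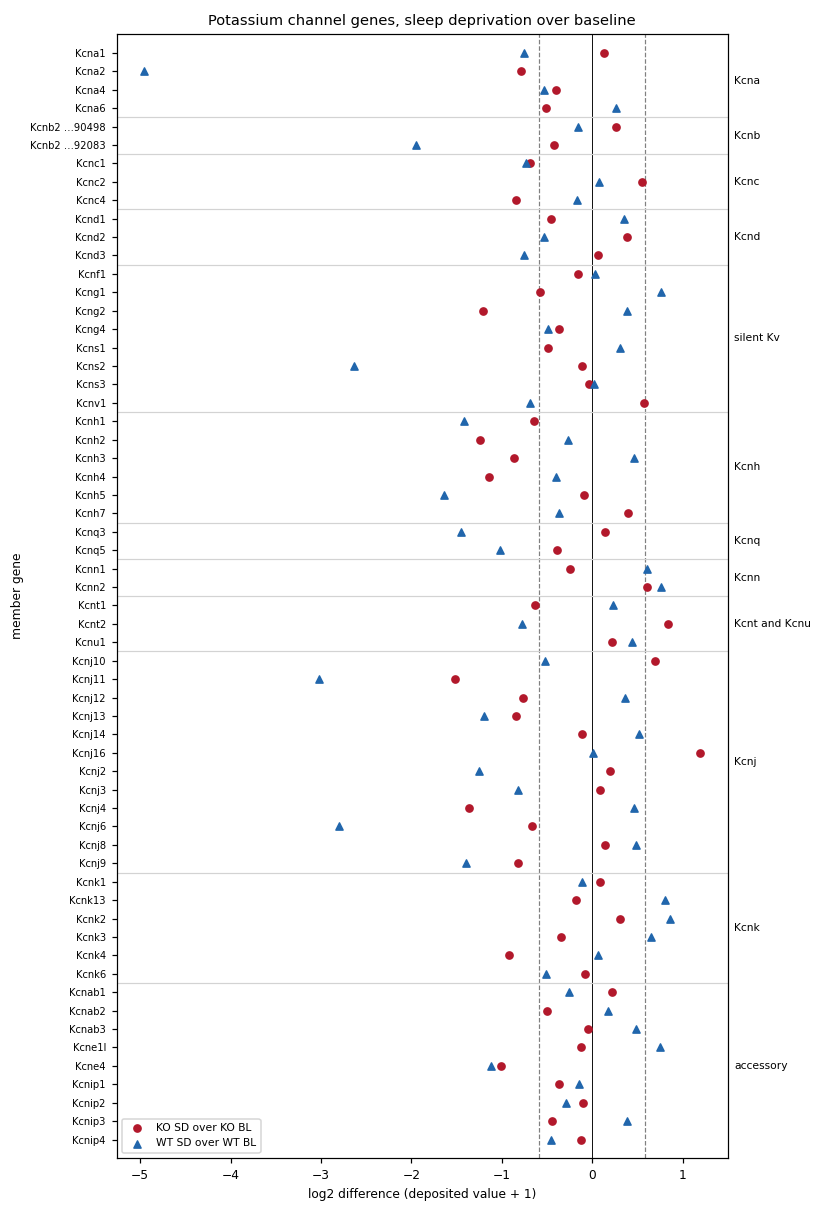
Log2 difference of sleep deprivation over baseline for 60 of the 64 members at deposited values, with circles for the knockout pair, triangles for the wildtype pair, and dashed lines at 1.5-fold. Of those drawn, 17 lie left of the lower line and 4 right of the upper one in the knockout pair, and 19 and 7 in the wildtype pair.

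The pairs share no library, and 9 members were lower in both, 14.1% of the 64 against 4.15% of all genes. Among them were Kcna2, Kcnc1, Kcnh1, Kcnj6, Kcnj9, Kcnj11, Kcnj13 and Kcne4. At corrected values 7 members were lower in both (10.9%) against 2.68% of all genes, among them Kcna2, Kcnj11, Kcnj13 and Kcne4 again, with Kcnb2 (ENSMUSG00000092083) and Kcnh2. Kcnn2 alone was higher in both pairs, 1.56% of members against 3.76% of all genes, and it stayed so at corrected values (3.25% of all genes).

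Promoter sequences from RefSeq (GRCm38.p6, 250 bases before to 50 after the start of transcription) were matched to 42 of the 63 symbols, and to 7 of the 9 genes lower in both pairs. Those of the genes lower in both pairs on both scales are printed, as far as they matched. Capitals mark the core of the cyclic AMP response element (TGACG), which binds factors switched on by neuronal activity, and the GC box (GGGCGG), each on either strand. Kcna2 is read from chr3:107101317-107101616 on the plus strand, Kcne4 from chr1:78816661-78816960 on the plus strand and Kcnj13 from chr1:87394680-87394979 on the minus strand.
Kcna2: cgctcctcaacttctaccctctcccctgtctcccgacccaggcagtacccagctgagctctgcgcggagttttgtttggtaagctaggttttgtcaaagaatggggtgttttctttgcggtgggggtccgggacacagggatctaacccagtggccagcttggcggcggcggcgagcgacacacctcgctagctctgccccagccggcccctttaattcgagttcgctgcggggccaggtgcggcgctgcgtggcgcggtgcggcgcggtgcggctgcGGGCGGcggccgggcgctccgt
Kcne4: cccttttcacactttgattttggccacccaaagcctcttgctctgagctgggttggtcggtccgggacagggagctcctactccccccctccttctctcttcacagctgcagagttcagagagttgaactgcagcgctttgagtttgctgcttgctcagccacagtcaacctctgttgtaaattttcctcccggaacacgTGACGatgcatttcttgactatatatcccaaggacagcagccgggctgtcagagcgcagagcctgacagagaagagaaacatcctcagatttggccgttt
Kcnj13: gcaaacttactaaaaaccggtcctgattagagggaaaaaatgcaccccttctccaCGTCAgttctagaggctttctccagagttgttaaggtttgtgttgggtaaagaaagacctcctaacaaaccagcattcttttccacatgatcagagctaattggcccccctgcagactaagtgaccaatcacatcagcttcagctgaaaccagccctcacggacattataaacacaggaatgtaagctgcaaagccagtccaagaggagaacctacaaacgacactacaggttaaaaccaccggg
The Kcna2 window holds 1 GC box and no TGACG, and those of Kcne4 and Kcnj13 hold 1 TGACG each and no GC box. Over the 8 promoters of the genes lower in both pairs, 4 hold TGACG and 4 the GC box, against 20.8% and 35.7% of all 32851 promoters and 18.8% and 46.9% of the 64 promoters of members. The full element TGACGTCA, which contains the core, was in 0 of the 64 and in 1.79% of all. The 8 promoters belong to 7 genes, with 2 from Kcnj6. Median GC content was 62.7% in these 8, 59.0% in the promoters of members and 52.7% in all promoters. Its part in the matches was not tested. A match of letters is a description of the window alone.

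Kcna genes set spike threshold and axonal excitability, and among all members Kcna2 differed most in the wildtype pair, though not in the knockout pair. Kcna2 (chromosome 3, 107101567 to 107106879) was at 175 normalised counts in KO SD, 303 in KO BL, 16.1 in WT SD and 530 in WT BL. The log2 difference was -0.79 in the knockout pair (-1.07 to -0.52) and -4.95 in the wildtype pair (-5.84 to -4.25), and at corrected values -0.69 in the knockout and -4.49 in the wildtype pair. WT SD was the lowest of the 4 and WT BL the highest. In the authors' deposited table for WT BL against WT SD, made without replicates, Kcna2 had an FDR of 4.91e-07, Kcnj11 of 0.0036, Kcnj6 of 0.00513 and Kcns2 of 0.0071, so that 4 members (6.25%) were under 0.05, beside 4.78% of all genes compared. In the authors' deposited table for WT SD against KO SD, 2 members were under 0.05, Kcna2 and Kcnj11, beside 2.32% of all genes compared. The authors' deposited tables for KO BL against KO SD (0.148% of all genes compared) and for WT BL against KO BL (0.133%) had 0 members under 0.05. Kcna1, its axonal partner, was at 5197 in KO SD, 4747 in KO BL, 3892 in WT SD and 6583 in WT BL, and its wildtype difference of -0.76 became -0.05 at corrected values. Kcna6, the highest of the subfamily per kb, stood at 2344 in KO SD, 3338 in KO BL, 2962 in WT SD and 2466 in WT BL, under 1.5-fold in both pairs at deposited values and at 0.70 in the wildtype pair at corrected values. Kcna4 was under 1.5-fold in both pairs at deposited values (-0.40 in the knockout and -0.53 in the wildtype pair) and at -0.76 in the knockout pair at corrected values.

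Kcnc genes carry the fast, high-threshold current of fast-spiking neurons. Kcnc1, the highest of the subfamily per kb, was at 4002 normalised counts in KO SD, 6425 in KO BL, 3532 in WT SD and 5877 in WT BL, lower at -0.68 in the knockout and -0.73 in the wildtype pair, but at corrected values at -0.19 in the knockout pair and -0.60 in the wildtype pair. Kcnc4 was lower in the knockout pair alone (-0.85, corrected -0.31), and Kcnc2 was within 1.5-fold in both (0.56 in the knockout and 0.08 in the wildtype pair), with 0.73 at corrected values in the wildtype pair.

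Kcnb genes code for delayed rectifiers and Kcnd genes for A-type channels. Kcnb2 under ENSMUSG00000092083 was at 158 normalised counts in KO SD, 213 in KO BL, 69.0 in WT SD and 268 in WT BL, and under ENSMUSG00000090498, which the GENCODE M21 annotation does not hold, at 57.8 in KO SD, 47.9 in KO BL, 88.9 in WT SD and 99.0 in WT BL. The identifiers differed in opposite ways between the sleep-deprived pools, so that a level for the gene as a whole is uncertain. Kcnd3, highest of its subfamily per kb, was at 2180 in KO SD, 2086 in KO BL, 1483 in WT SD and 2497 in WT BL, a wildtype difference of -0.75 that became -0.43 at corrected values. Kcnd1 and Kcnd2 were within 1.5-fold in both pairs at deposited values.

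The silent subunits Kcnf, Kcng, Kcns and Kcnv form no channel alone and modify Kcnb channels. Kcns2 was at 596 normalised counts in KO SD, 646 in KO BL, 190 in WT SD and 1186 in WT BL. Its difference was -0.12 in the knockout pair (-0.28 to 0.05) and -2.63 in the wildtype pair (-2.88 to -2.41), with its lowest value in WT SD. Kcnv1, the highest of these per kb, stood at 4428 in KO SD, 2973 in KO BL, 3148 in WT SD and 5069 in WT BL. Its difference was 0.57 (corrected -0.03) in the knockout pair and -0.69 (corrected -0.18) in the wildtype pair. Kcng1 stood at 432 in KO SD, 647 in KO BL, 601 in WT SD and 354 in WT BL, with -0.58 (corrected 0.03) in the knockout pair and 0.76 (corrected 0.42) in the wildtype pair. Kcng2 was at 57.0 in KO SD, 133 in KO BL, 120.0 in WT SD and 91.8 in WT BL, lower at -1.20 in the knockout pair, and its wildtype difference of 0.38 became -1.74 at corrected values. It has the highest GC content of all members, at 71.6%. Kcnf1, Kcng4, Kcns1 and Kcns3 were within 1.5-fold in both pairs at deposited values.

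Kcnh channels are voltage-gated relatives of the ether-a-go-go channel of flies. Kcnh1 was at 2621 normalised counts in KO SD, 4085 in KO BL, 1814 in WT SD and 4852 in WT BL, lower at -0.64 (corrected -0.30) in the knockout pair and -1.42 (corrected -1.02) in the wildtype pair. Kcnh2, the subunit of the rapid repolarising current of the heart, was at 385 in KO SD, 914 in KO BL, 395 in WT SD and 475 in WT BL. Its difference was -1.25 (corrected -0.59) in the knockout pair and -0.26 (corrected -0.89) in the wildtype pair. Kcnh3, highest of the subfamily per kb, was at 3282 in KO SD, 5989 in KO BL, 4349 in WT SD and 3158 in WT BL, lower at -0.87 in the knockout pair (corrected -0.27). Kcnh4 was also lower there (-1.14, corrected -0.56), and lay between 271 normalised counts in KO SD and 599 in KO BL. Kcnh5 was at 211 in KO SD, 225 in KO BL, 128 in WT SD and 399 in WT BL, lower in the wildtype pair (-1.64, corrected -1.09) with -0.09 in the knockout pair. Kcnh7, which shares exon sequence with Gca, was at 3837 in KO SD, 2923 in KO BL, 4441 in WT SD and 5721 in WT BL, within 1.5-fold in both pairs.

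Kcnq genes carry the M-current, which restrains repetitive firing. Kcnq3 was at 5113 normalised counts in KO SD, 4635 in KO BL, 2308 in WT SD and 6303 in WT BL. Its difference was 0.14 in the knockout pair and -1.45 (corrected -0.81) in the wildtype pair, with its lowest value in WT SD. Kcnq5 was at 2697 in KO SD, 3529 in KO BL, 2313 in WT SD and 4694 in WT BL, with -0.39 in the knockout pair and -1.02 (corrected -0.55) in the wildtype pair.

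Kcnn2 (chromosome 18), a small-conductance channel that produces the slow pause after a spike, was at 1572 normalised counts in KO SD, 1032 in KO BL, 1650 in WT SD and 973 in WT BL. It was higher by 0.61 in the knockout pair (0.49 to 0.73) and by 0.76 in the wildtype pair (0.64 to 0.89), and at corrected values by 0.79 in the knockout and 1.06 in the wildtype pair. Both sleep-deprived pools thus lay above both baseline pools, although with scaling by library totals the knockout difference is under 1.5-fold. Kcnn2 shares exon sequence with A330093E20Rik and AC121957.1, so that its reads are less surely assigned. Kcnn1 was higher in the wildtype pair (0.61, corrected 0.74) and at -0.24 in the knockout pair. Kcnt1, the sodium-activated channel highest of its group per kb, was at 2468 in KO SD, 3830 in KO BL, 2845 in WT SD and 2426 in WT BL, lower at -0.63 in the knockout pair (corrected -0.13). Kcnt2, its sister, was at 889 in KO SD, 496 in KO BL, 476 in WT SD and 814 in WT BL, and was the single member past 1.5-fold in opposite directions, at 0.84 (corrected 0.15) in the knockout pair and -0.77 (corrected -0.34) in the wildtype pair. Kcnu1, in other work a channel of sperm, averaged 64.9 normalised counts per kb and was within 1.5-fold in both pairs at deposited values.

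Among the 12 Kcnj genes of inward rectifiers, 2 were higher and 6 lower in the knockout pair and 0 were higher and 6 lower in the wildtype pair. At corrected values 2 were higher and 3 lower in the knockout pair, and 1 higher and 5 lower in the wildtype pair. The shares over all genes are those given for all members. As deposited they were 16.2% higher and 16.4% lower in the knockout pair and 24.5% higher and 24.1% lower in the wildtype pair. Corrected, they were 7.79% higher and 5.34% lower in the knockout pair and 18.5% higher and 18.2% lower in the wildtype pair. Kcnj11 (chromosome 7, 46098725 to 46099897), the pore of the ATP-sensitive channel that couples metabolism to excitability, was at 168 normalised counts in KO SD, 483 in KO BL, 24.4 in WT SD and 205 in WT BL. It was lower at -1.52 in the knockout pair (-1.79 to -1.27) and by -3.02 in the wildtype pair (-3.78 to -2.43), and at corrected values at -0.97 in the knockout and -3.90 in the wildtype pair. Abcc8, its sulfonylurea receptor partner, was lower in both as well, at 401 in KO SD, 1024 in KO BL, 303.5 in WT SD and 603 in WT BL, by -1.35 (corrected -0.86) in the knockout pair and -0.99 (corrected -0.81) in the wildtype pair. Kcnj8, the other pore of that class, was within 1.5-fold in both pairs at deposited values.

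Of the G-protein-gated rectifiers, through which adenosine, GABA and monoamine receptors inhibit neurons, Kcnj6 was at 192 normalised counts in KO SD, 304 in KO BL, 51.1 in WT SD and 362 in WT BL. Its difference was -0.66 in the knockout pair (-0.93 to -0.39) and -2.80 in the wildtype pair (-3.30 to -2.37), and at corrected values -0.55 in the knockout and -2.41 in the wildtype pair. Kcnj9 was at 3245 in KO SD, 5731 in KO BL, 1764 in WT SD and 4638 in WT BL, lower at -0.82 (corrected -0.26) in the knockout pair and -1.39 (corrected -1.46) in the wildtype pair. Both genes, which share exon sequence with Gm41505 (Kcnj6) and Gm36937 (Kcnj9), thus had their lowest value in WT SD and passed 1.5-fold there on both scales, but only at deposited values in the knockout pair. Kcnj3, the common partner subunit, was at 3951 in KO SD, 3710 in KO BL, 3564 in WT SD and 6282 in WT BL, and its wildtype difference of -0.82 became -0.29.

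The glial rectifiers differed in the knockout pair. Kcnj10 was at 12210 normalised counts in KO SD, 7551 in KO BL, 7105 in WT SD and 10240 in WT BL. Kcnj16, which joins it in astrocytes, was at 2006 in KO SD, 876 in KO BL, 1210 in WT SD and 1204 in WT BL. In KO SD over KO BL, Kcnj10 was higher by 0.69 (0.65 to 0.74; corrected 0.72) and Kcnj16 by 1.19 (1.07 to 1.32; corrected 0.64). In the wildtype pair Kcnj10 stood at -0.53 (corrected 0.11) and Kcnj16 at 0.01 (corrected 0.39). Of 7 astrocyte markers 4 were higher in the knockout pair and 0 lower, beside 16.2% and 16.4% of all genes. At corrected values these were 2 and 0, beside 7.79% and 5.34%. In the wildtype pair 2 were higher and 2 lower, beside 24.5% and 24.1% of all genes. At corrected values these were 3 and 0, beside 18.5% and 18.2%. The summed level of the 7 markers was 260900 normalised counts in KO SD, 151800 in KO BL, 180000 in WT SD and 189400 in WT BL. Slc1a2 alone gave 153900 of it in KO SD, 77530 in KO BL, 83200 in WT SD and 114700 in WT BL. None of the 7 was near 0, Aqp4 being lowest at 2230 in KO BL. The part of the markers in the values of Kcnj10 and Kcnj16 was not tested. Kcnj13, a channel of choroid plexus and retinal epithelium, was at 38.6 in KO SD, 70.1 in KO BL, 46.7 in WT SD and 108 in WT BL, lower at -0.84 (corrected -1.06) in the knockout pair and -1.19 (corrected -1.97) in the wildtype pair. It shares exon sequence with Gigyf2, so that its reads are less surely assigned. The 3 choroid plexus markers summed to 660 in KO SD, 204 in KO BL, 87.1 in WT SD and 175 in WT BL. Of these, Ttr was at 581 in KO SD and 23.8 to 65.0 in the others, and Folr1 near 0 at 3.51 to 13.8. Kl, the third of these markers, was at 75.5 in KO SD, 125 in KO BL, 54.4 in WT SD and 137 in WT BL. The part of these markers in the values of Kcnj13 was not tested. The remaining rectifiers of strong type were mixed: Kcnj4 stood at 1587 in KO SD, 4095 in KO BL, 2860 in WT SD and 2076 in WT BL, lower at -1.37 in the knockout pair (corrected -0.75), while Kcnj2 stood at 506 in KO SD, 441 in KO BL, 353 in WT SD and 844 in WT BL, lower at -1.25 in the wildtype pair (corrected -0.69). Kcnj12 was lower in the knockout pair by -0.76 (corrected -0.23), and Kcnj14 was within 1.5-fold in both.

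Of 14 Kcnk rows, the leak channels, 6 passed the filter. At deposited values Kcnk and Kcnn were the subfamilies without a lower member in the wildtype pair. On the corrected scale Kcnd and the group of Kcnt and Kcnu also had 0 lower there. Kcnk2, a leak channel opened by stretch and lipids, was at 1995 normalised counts in KO SD, 1611 in KO BL, 2977 in WT SD and 1640 in WT BL. It was higher by 0.86 in the wildtype pair (0.77 to 0.95; corrected 1.35) and stood at 0.31 in the knockout pair. Kcnk13, known from microglia, was at 183 in KO SD, 208 in KO BL, 286 in WT SD and 163 in WT BL, higher by 0.81 in the wildtype pair (corrected 0.71). There 3 of 6 microglial markers were also higher and 0 lower, beside 24.5% and 24.1% of all genes, and none of them was near 0. Their summed level was 11600 in WT SD against 9130 in WT BL, and their part in Kcnk13 was not tested. Kcnk3, an acid-sensitive leak channel, was higher in the same pair by 0.65 (corrected 0.61), Kcnk4 was lower in the knockout pair by -0.92 (corrected -0.28), and Kcnk1 and Kcnk6 were within 1.5-fold in both. Kcnk1, highest of the group per kb, was nearly level, at 4080 in KO SD, 3837 in KO BL, 3737 in WT SD and 4029 in WT BL.

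Of the accessory subunits 0 of 9 were higher and 1 lower in the knockout pair, and 1 was higher and 1 lower in the wildtype pair, beside 16.2%, 16.4%, 24.5% and 24.1% of all genes in that order. At corrected values 0 were higher and 2 lower in each pair. The corrected shares of all genes were 7.79% higher and 5.34% lower in the knockout pair, and 18.5% and 18.2% in the wildtype pair. Kcne4, a single-span subunit that suppresses Kcnq and Kcna channels in other cells, was at 41.2 normalised counts in KO SD, 83.9 in KO BL, 32.2 in WT SD and 71.2 in WT BL. It was lower at -1.01 in the knockout pair (-1.59 to -0.47) and -1.12 in the wildtype pair (-1.83 to -0.49), so that both sleep-deprived pools lay below both baseline pools at low counts. Kcne1l, a relative, was higher in the wildtype pair by 0.75 (corrected 0.25), at 126 in KO SD, 138 in KO BL, 173 in WT SD and 102 in WT BL. Kcnab2 was at 14050 in KO SD, 19880 in KO BL, 14270 in WT SD and 12650 in WT BL, and Kcnab1, Kcnab3 and the 4 Kcnip genes were also within 1.5-fold in both pairs at deposited values. At corrected values Kcnip2 was at -0.60 in the wildtype pair and Kcnip4 at -0.70 in the knockout pair.

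**Figure D3:**
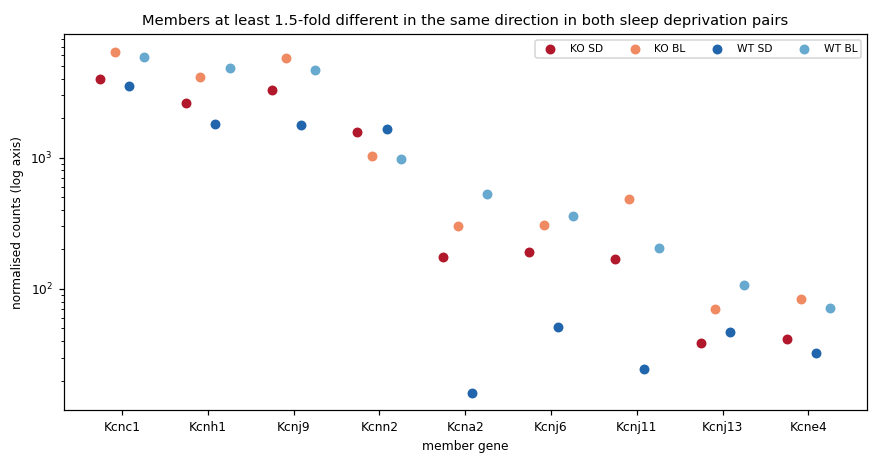
Normalised counts (log axis) in each library for 9 of the 10 members at least 1.5-fold different in the same direction in both sleep deprivation pairs, in the order KO SD, KO BL, WT SD, WT BL for each gene. For 8 genes each sleep-deprived pool lies below the baseline pool of its genotype, and for Kcnn2 above it.

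A model with additive terms for sleep deprivation and genotype was fitted to all 13550 genes with limma, which leaves 1 residual degree of freedom. That residual holds any difference between the genotypes' responses. For deposited values limma took each gene's error wholly from the variance trend over all genes, because the prior was infinite. With the finite prior of the corrected values (6.28), a gene's own residual entered its error in part. The model can therefore call a member at deposited values whose response differs widely between the genotypes. At an adjusted p under 0.05 it called 0 members higher and 1 lower, where 0.244% of all genes were higher and 0.509% lower. The member was Kcna2, with an averaged difference of -2.87 (limma adjusted p = 0.00291, lower in both pairs), the mean of -0.79 in the knockout pair and -4.95 in the wildtype pair. Kcnj11 followed at -2.27 (limma adjusted p = 0.0664). At unadjusted p under 0.05, limma gave 0 members higher and 7 lower, beside 3.50% and 2.63% of all genes, among them Kcna2, Kcnj11, Kcnh1, Kcnj6, Kcnj9 and Kcns2. At corrected values limma called 0 members at an adjusted p under 0.05, beside 0.00738% of all genes higher and 0.0148% lower, and Kcna2 had an adjusted p of 0.393. At unadjusted p under 0.05 it gave 2 members higher and 11 lower there, beside 6.25% and 5.42% of all genes.

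The second question was whether levels differ between the genotypes. At baseline, 13 members were higher and 11 lower in KO BL over WT BL (20.3% and 17.2%), where 16.4% of all genes were higher and 10.7% lower. At corrected values 0 were higher and 6 lower, beside 3.19% and 3.48% of all genes. The members followed GC content closely: across the 64, the rank correlation of the deposited difference with GC content was 0.84, against 0.80 over all 13550 genes. For KO SD over KO BL, where the same KO BL library is the reference, it was -0.73 across members and -0.71 over all genes. These points share their libraries, and at corrected values the members' correlations were 0.06 for KO SD over KO BL and 0.09 for KO BL over WT BL. With transcript length the correlation was -0.35 across members and -0.49 over all genes in WT SD over WT BL. In KO SD over WT SD it was 0.39 and 0.51, in KO SD over KO BL 0.37 and 0.06, and in KO BL over WT BL -0.48 and -0.22. The median length was 2917 bases for members and 2015 for all genes. The highest in KO BL over WT BL were Kcnj11 (1.23, corrected 0.52), Kcnj4 (0.98, corrected 0.27), Kcnh2 (0.94, corrected 0.14), Kcnh3 (0.92, corrected 0.25) and Kcng1 (0.87, corrected 0.18), with a GC content of 58.9% to 60.8%. The lowest were Kcnb2 under ENSMUSG00000090498 (-1.03, corrected -0.39), Kcnh7 (-0.97, corrected -0.39), Kcnj2 (-0.93, corrected -0.36), Kcns2 (-0.88, corrected -0.70) and Kcnh5 (-0.82, corrected -0.70). Kcna2, Kcnh5 and Kcns2 were the members lower on both scales, and no member was higher on both. The share of all genes past 1.5-fold on both scales was not counted.

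**Figure D4:**
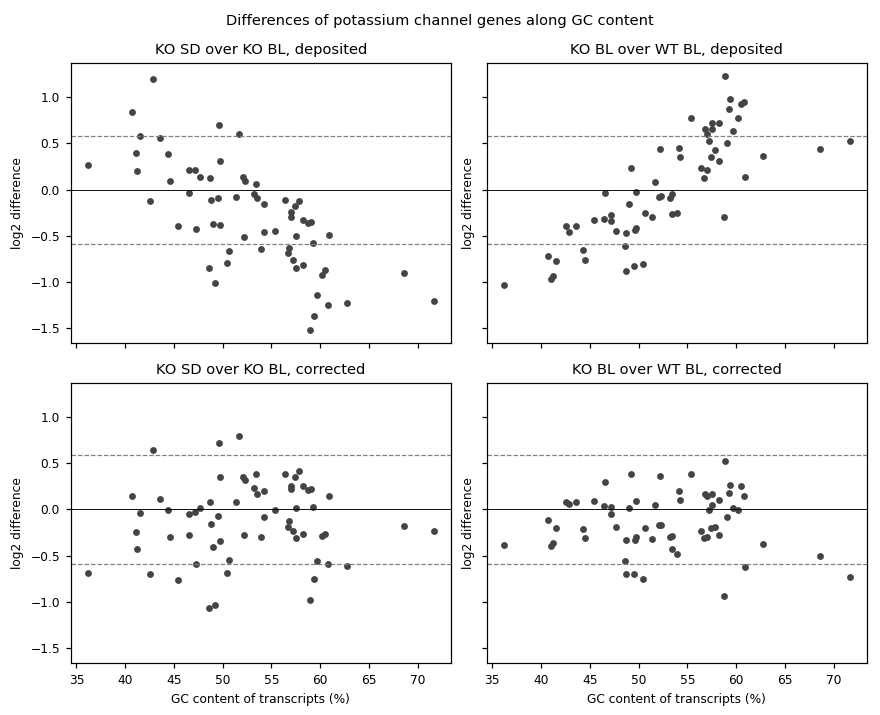
Log2 difference against GC content of the transcripts for the 64 members, for KO SD over KO BL (left) and KO BL over WT BL (right), at deposited (top) and corrected (bottom) values, with dashed lines at 1.5-fold. The rank correlations across members are -0.73 and 0.84 at deposited values and 0.06 and 0.09 at corrected values.

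After sleep deprivation, 13 members were higher and 7 lower in KO SD over WT SD (20.3% and 10.9%), where 19.8% of all genes were higher and 21.1% lower. At corrected values the members were 11 and 6, beside 14.5% and 12.7% of all genes. Higher on both scales were 9 members, for which the matching share of all genes was not counted. Among these were Kcna2 (3.36, 2.63 to 4.25), Kcnj11 (2.73, 2.14 to 3.49), Kcnj6 (1.89, 1.45 to 2.40), Kcns2 (1.64, 1.41 to 1.90), Kcnb2 under ENSMUSG00000092083 (1.18), Kcnq3 (1.15) and Kcnj9 (0.88). All 9 were also lower in WT SD over WT BL, which shares the WT SD library with this comparison. Lower in KO SD were Kcng2 (-1.06), Kcnj4 (-0.85), Kcns1 (-0.66), Kcnk13 (-0.64), Kcnab3 (-0.63), Kcnb2 under ENSMUSG00000090498 (-0.61) and Kcnj12 (-0.59). Of these only the Kcnb2 identifier was also lower at corrected values (-1.25), and Kcng2 changed sign (0.78). Kcns1, a silent subunit, stood at 851 normalised counts in KO SD, 1197 in KO BL, 1345 in WT SD and 1087 in WT BL. Kcnab3, a beta subunit, stood at 3548 in KO SD, 3670 in KO BL, 5492 in WT SD and 3914 in WT BL.

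In the genotype pairs, which share no library, Kcnj11 was higher in both at deposited values (1.56% of members against 1.49% of all genes) and Kcnb2 under ENSMUSG00000090498 lower in both (1.56% against 0.546%), a count added after the values were seen. At corrected values 0 members were higher in both (0.775% of all genes) and 0 lower in both (0.583% of all genes).

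**Figure D5:**
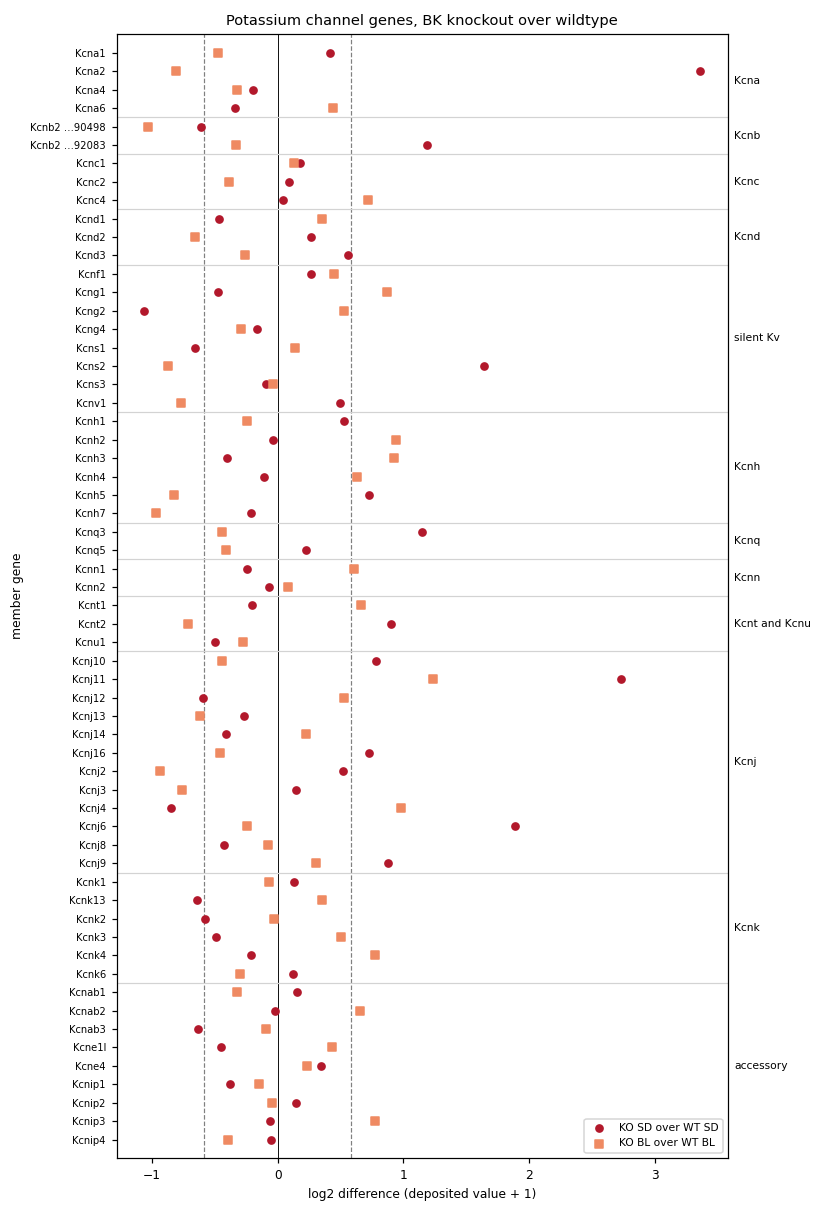
Log2 difference of BK knockout over wildtype for 60 of the 64 members at deposited values, with circles for the sleep-deprived pools, squares for the baseline pools, and dashed lines at 1.5-fold. Of those drawn, 11 lie right of the upper line after sleep deprivation, led by Kcna2 at 3.36 and Kcnj11 at 2.73, and 7 left of the lower one.

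The third question was whether the genotypes differ in their response to sleep deprivation, taken as the knockout difference minus the wildtype difference and counted from 1 on the log2 scale. At deposited values it was higher in 12 members and lower in 5 (18.8% and 7.81%), where 16.6% of all genes were higher and 19.2% lower. At corrected values it was higher in 10 and lower in 1, Kcnk2, a leak channel, beside 8.19% and 5.56% of all genes. Kcna2 (4.16, corrected 3.80), Kcns2 (2.52, corrected 1.89) and Kcnj6 (2.14, corrected 1.86) were highest, and each had its lowest value in WT SD. Kcnj4 (-1.83, corrected -0.81), Kcng2 (-1.59, corrected 1.51) and Kcng1 (-1.34, corrected -0.39) were lowest, and none of these 3 was lower by 1 at corrected values. Without replicates the difference of responses has no test.

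Genes that work with potassium channels without belonging to the family were taken from lists of partners, pumps and related channels. Over all genes at deposited values, 16.2% were higher and 16.4% lower in the knockout pair, and 24.5% higher and 24.1% lower in the wildtype pair. At corrected values these shares were 7.79% and 5.34% in the knockout pair and 18.5% and 18.2% in the wildtype pair. Of 9 potassium pump and cotransporter genes, 1 was higher and 3 lower in the knockout pair (corrected 0 and 2), and 1 higher and 5 lower in the wildtype pair (corrected 2 and 4). Of 3 HCN genes compared, which code for channels opened by hyperpolarisation, 0 were higher and 1 lower in the knockout pair (corrected 0 and 0), and 0 higher and 2 lower in the wildtype pair (corrected 0 and 3). Of 8 partners of Kcna channels, 1 was higher and 2 lower in the knockout pair (corrected 0 and 0), and 0 higher and 4 lower in the wildtype pair (corrected 0 and 2). Among them the scaffold Dlg2 was at 5498 normalised counts in KO SD, 3757 in KO BL, 367 in WT SD and 5173 in WT BL. Of 5 auxiliary proteins of Kcnb and Kcnd channels, 0 were higher and 2 lower in the knockout pair (corrected 0 and 0), and 0 higher and 3 lower in the wildtype pair (corrected 0 and 1). Dpp6 and Amigo1 were lower in both pairs at deposited values, but at corrected values Dpp6 stood at -0.55 in the knockout and -0.37 in the wildtype pair, and Amigo1 at -0.16 and -0.64 in these pairs. Of 7 regulators of Kcnq and Kcnn channels, 0 were higher and 1 lower in the knockout pair (corrected 0 and 0), and 1 higher and 1 lower in the wildtype pair (corrected 2 and 1). Calm3 was lower in the knockout pair (-0.60, corrected -0.26), and in the wildtype pair Akap5 was higher (0.61, corrected 1.27) and Nedd4l lower (-0.84, corrected -0.11). Of the 2 sulfonylurea receptors, 0 were higher and 1 lower in the knockout pair (corrected 0 and 1), and 0 higher and 2 lower in the wildtype pair (corrected 0 and 1), with Abcc9 at -1.05 (corrected -0.34) there.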

How the data were processed

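Total RNA from mouse brain cortex was measured in 4 libraries, 1 for each group and each pooled over 4 animals, per the labels. RSEM 1.2.19, edgeR and the mm10 (GRCm38) build are named in the submitters' processing notes, and the aligner is not given in the sources used here. The signal deposited by the authors is an estimated count per gene divided by 1 factor per library, as the values show. The authors' deposited tables also hold a log2 ratio, a p-value and an FDR per gene, each made from a pair of single libraries, with baseline or wildtype on top of the ratio. GC fraction and transcript width are also as deposited by the authors.

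Values were read from 1 of the 4 tables. In another, 1 cell of a gene that is no member had been turned into a date, and no other cell differed. The design assumed that a count model might be possible, but the values are not whole reads (69.6% to 74.6% of values under 20 were whole multiples within 0.02 of a read), so limma 3.58.1 (R 4.3.3, trend variance, Benjamini-Hochberg adjustment) was used on log2(value + 1), which understates differences of low genes. The prior degrees of freedom were infinite at deposited values and 6.28 at corrected ones. The worth of 1 read (0.8775 in KO SD, 1.252 in KO BL, 1.111 in WT SD and 1.148 in WT BL) gave the read numbers behind the exact binomial intervals. Corrected values subtract, for each library, a loess curve (span 0.3, degree 2), fitted to its deviation from the 4-library mean, over GC content and log10 width, and also centre each library. The procedure was tested on simulated data. Exon overlap on either strand was taken from GENCODE M21, by which 23 of the 64 members share an exon with another gene, and the strandedness of counting is not given in the sources used here.

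The members and all lists were chosen with earlier results of these data known. Values in all libraries are given for the highest member per kb of each subfamily, members past 1.5-fold in both sleep deprivation pairs, the 5 most raised and 5 most lowered in each comparison, and the 3 per direction with the largest difference of responses. Further members are named by value where they complete a subfamily. Some genes, members among them, are not reported here by name or drawn by name, and they stay in the counts.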

Additional observations from a re-analysis of the deposited data

Results flagged for a closer look

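Kcnt2, a sodium-activated potassium channel, moved in opposite directions in the genotypes: it was 0.84 higher on the log2 scale in KO SD over KO BL and lower at -0.77 in WT SD over WT BL. With 1 library a group the difference was not tested. At corrected values it stood at 0.15 in the knockout pair and -0.34 in the wildtype pair, both under 1.5-fold.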

How the results depend on the processing

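Of 95 calls of members over the 4 comparisons, 95 were kept with median ratio scaling, 92 with a pseudocount of 10 and 87 with total scaling. The filter on the mean only chooses which rows are compared and leaves the difference of a row unchanged. With no filter (95 of 95) and with a mean of at least 200 (83 of 83) all calls were therefore kept by construction. At corrected values 43 of the 95 were kept and 2 changed sign. The 2 were Kcng2 in KO SD over WT SD (0.78) and Kcnk4 in KO BL over WT BL (-0.0048, close to 0). The difference of responses of Kcng2, not among the 95, also changed sign (1.51). At corrected values 11 members were lower in KO SD over KO BL, 0 higher and 6 lower in KO BL over WT BL, the difference of responses was lower in 1, both genotype pairs held 0 higher and 0 lower, and limma called 0 lower. At 2-fold, with the all-gene share in brackets, WT SD over WT BL held 0 higher (14.3%) and 15 lower (10.9%). KO SD over KO BL held 1 higher (4.18%) and 7 lower (3.09%), and KO BL over WT BL 1 (4.08%) and 1 (0.768%). KO SD over WT SD held 6 higher (7.95%) and 1 lower (9.88%). Both sleep deprivation pairs held 0 higher (0.731%) and 3 lower (0.76%), and both genotype pairs 0 lower (0.125%). The difference of responses, at 2 on the log2 scale, was higher in 3 (3.08%) and lower in 0 (3.87%). Without a filter 86 members of 23084 genes were compared, with the all-gene share in brackets: 33 were lower in WT SD over WT BL (26.5%), 9 higher (21.8%) and 31 lower (20.1%) in KO SD over KO BL, 22 higher in KO BL over WT BL (20.8%), 24 higher in KO SD over WT SD (24.2%), 2 higher (6.24%) and 15 lower (5.78%) in both sleep deprivation pairs, 12 lower in the difference of responses (23.7%), and 4 higher (3.73%) and 2 lower (2.85%) in both genotype pairs. With total scaling the all-gene median was -0.12 in the knockout pair and -0.20 in the wildtype pair (-0.04 in each as deposited). Under it 4 members were higher in WT SD over WT BL (19.7% of all genes) and 3 lower in KO SD over WT SD (19.1%). Also under it 0 were higher in both sleep deprivation pairs (2.47%) and 0 lower in both genotype pairs (0.509%). The last count was also 0 with a pseudocount of 10 (0.391%) and with a mean of at least 200 (0.347%). Without the genotype block limma called 0 members lower (0.0148% of all genes). Apart from these constructions the cause was not tested. No paired analysis was possible because each group has 1 library, so that no replicate numbers pair samples beyond the genotype term of the limma model; for the same reason no replicate could be left out. Depth limits the members of few counts, such as Kcne4 and Kcnj13.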
